A study of Rattus norvegicus with 12 samples.

Results

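The 12 rat livers of a feeding study differed in how strongly they expressed inducible inflammatory genes, and they are compared here by that difference rather than by diet. The marker score of an array was the mean log2 signal of 4 marker genes, the cytokine receptor Osmr, the kinase Ripk2, the adaptor Tifa and the guanylate-binding protein Gbp5. Livers with a score above 9 are called inflamed and the others quiet, which gave 5 inflamed and 7 quiet arrays of 12 in all. The names stand for this rule alone; no histology or plasma measurement was used. The arrays were thus selected on measured expression, so the differences between inflamed and quiet livers are given as a description with no test, and the 4 marker genes are left out of the results.

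The animals were male Sprague-Dawley rats of a diet-induced obese strain, 12 weeks old at the start and 20 weeks old at the end. All ate a high fat, high sucrose diet without restriction for 8 weeks, at 4.6 kcal per gram and with 10% of the energy as protein. The protein was casein in the control group, skim milk powder as complete dairy protein in the dairy group, and casein at 7.1% plus leucine at 2.9% of the energy in the leucine group, with 4 livers each. Total RNA of each liver was hybridised to 1 Affymetrix Rat Gene 1.0 ST array, and the labels do not say whether the rats of a group shared a cage. In whole liver, fewer cells of a type and less RNA per cell cannot be told apart.

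In an inflamed liver, bacterial products, interleukin-1 and tumour necrosis factor act through adaptors and kinases that free the transcription factor NF-kappaB. Cytokines of the interleukin-6 and oncostatin M family act through the shared receptor chain gp130, Janus kinases and the transcription factor STAT3, and interferons act through Janus kinases and other STAT proteins. Hepatocytes answer these signals by secreting acute phase proteins, and the inflamed liver is also known for lower expression of nuclear receptors and of the bile acid, lipid and drug metabolism genes that those receptors drive.

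The marker score was 10.25 in casein 3, 9.93 in dairy 2, 9.98 in dairy 4, 10.29 in leucine 3 and 9.502 in leucine 4, the 5 inflamed livers (diet and replicate number). Among the quiet livers it was 6.26, 5.22 and 7.17 in casein 1, 2 and 4, 5.18 and 6.27 in dairy 1 and 3, and 5.10 and 8.01 in leucine 1 and 2. Leucine 4 lay nearest above the threshold, and leucine 2 nearest below it, followed by casein 4. Each diet held both kinds of liver, with 1 inflamed liver of 4 on casein, 2 of 4 on dairy protein and 2 of 4 on the leucine diet. The mean score was 7.22 ± 2.17 on casein, 7.84 ± 2.48 on dairy protein and 8.22 ± 2.29 on the leucine diet (SD, n = 4 each). The diets' means differed by less than the spread within each diet, which is a description with no test, because the score and its threshold chose the groups.

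**Figure D1:**
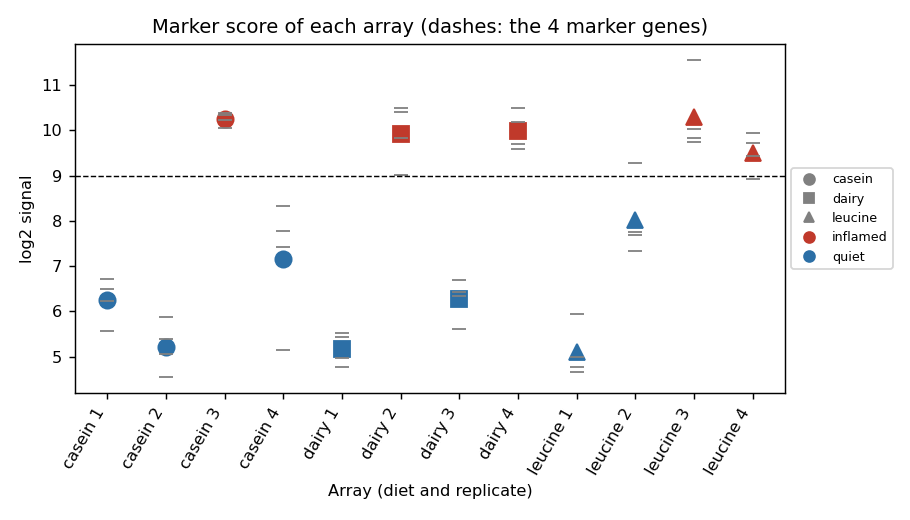
Marker score of each array (large symbols, log2 signal; circle casein, square dairy, triangle leucine) with the 4 marker genes as dashes and the threshold of 9 as a broken line. The 5 inflamed arrays (red) lie between 9.502 and 10.29 and the 7 quiet arrays (blue) between 5.10 and 8.01.

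For every other gene the difference between inflamed and quiet livers was fitted with diet as a covariate, and it is given on the log2 scale as inflamed minus quiet, with its standard error from 8 residual degrees of freedom. A gene is called higher where this difference was at least 1, a fold of 2, and the lowest inflamed array lay above the highest quiet array; it is called lower by the same rule turned round. Of 14502 genes, 405 were higher (2.79%) and 88 were lower (0.607%). Without the minimum difference, all inflamed arrays lay above all quiet arrays for 4.45% of the genes and below them for 2.16%. A positive difference of any size was found in 43.1% of the genes, so negative differences were the more common. These shares are the background for each list below, and since the arrays were grouped by their expression nothing more is read from them. The median difference was 1.52 among the higher genes and -1.35 among the lower genes, against -0.04 over all genes. A difference of 2 or more was found in 98 higher genes, and one of -2 or less in 10 lower genes.

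The 2 array groups were also apart on the first principal component, which held 39.3% of the variance: the inflamed arrays scored 23.0 to 41.1 and the quiet arrays -36.7 to -3.65. They overlapped on the second component, which held 23.0% and on which quiet dairy 3 (-52.8) and casein 4 (-27.9) scored lowest. The SD of all log2 values on an array ran from 2.24 to 2.32 in the inflamed and from 2.07 to 2.33 in the quiet group, and the 2 narrowest arrays, dairy 3 and casein 4, were quiet. The count of lower genes moved with them: it was 246 without these 2 arrays, with 450 higher, and 171 without casein 4 alone, with 462 higher. With fewer arrays the no-overlap part of the rule is easier to meet, while the fitted difference can rise or fall. The part of array spread in the count was not tested.

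The higher genes that stood furthest apart covered several kinds of function. Values are given for casein 3, dairy 2, dairy 4, leucine 3 and leucine 4 in that order throughout. Tgm1, a transglutaminase that cross-links proteins (probe set 10783880), had log2 signals of 11.54, 10.90, 10.11, 10.71 and 9.70 in the inflamed livers and of 4.74 to 6.93, median 5.44, in the quiet livers. Its difference of 4.96 (SE 0.49), a fold of 31.1, was the largest of the 405. Olr1, the scavenger receptor for oxidised low-density lipoprotein, stood at 7.84, 7.58, 8.30, 8.26 and 7.04 against 2.91 to 4.53, median 3.10, a difference of 4.24 (SE 0.42). Nos2, the inducible nitric oxide synthase, stood at 8.29, 8.99, 8.79, 8.02 and 5.54 against 3.21 to 5.21, median 4.27, with a difference of 3.65 (SE 0.56). Leucine 4 was thus close to the quiet livers for Nos2, while the other inflamed livers were far above them. Fgf23, a hormone that lowers blood phosphate, stood at 7.93, 6.12, 8.38, 9.48 and 6.11 against 3.49 to 4.51, median 3.84, with a difference of 3.64 (SE 0.66). Its spread within the inflamed group was wide, yet none of the 5 arrays came near the quiet range.

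Next in size were the death receptor Tnfrsf21 with a difference of 3.62 (SE 0.40), the phospholipase Pla1a with 3.61 (SE 0.52) and Fbxo32, a ubiquitin ligase subunit known from muscle wasting, with 3.57 (SE 0.33). Cxcl11, a chemokine that attracts T cells through CXCR3, had a difference of 3.43 (SE 0.50) and Stx18, a syntaxin of the endoplasmic reticulum, one of 3.31 (SE 0.17). Hcar2, the niacin and hydroxybutyrate receptor, differed by 3.24 (SE 0.32). Acod1, which makes the antibacterial metabolite itaconate, differed by 3.21 (SE 0.44) but ranged from 5.56 in leucine 4 to 9.18 in dairy 2 among the inflamed livers. The Janus kinase Jak2, the tubulin Tubb6, the sphingosine-1-phosphate receptor S1pr2 and the calcium-binding neutrophil protein S100a9 completed the leading 15, with differences of 3.14, 3.13, 3.12 and 3.07.

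**Figure D2:**
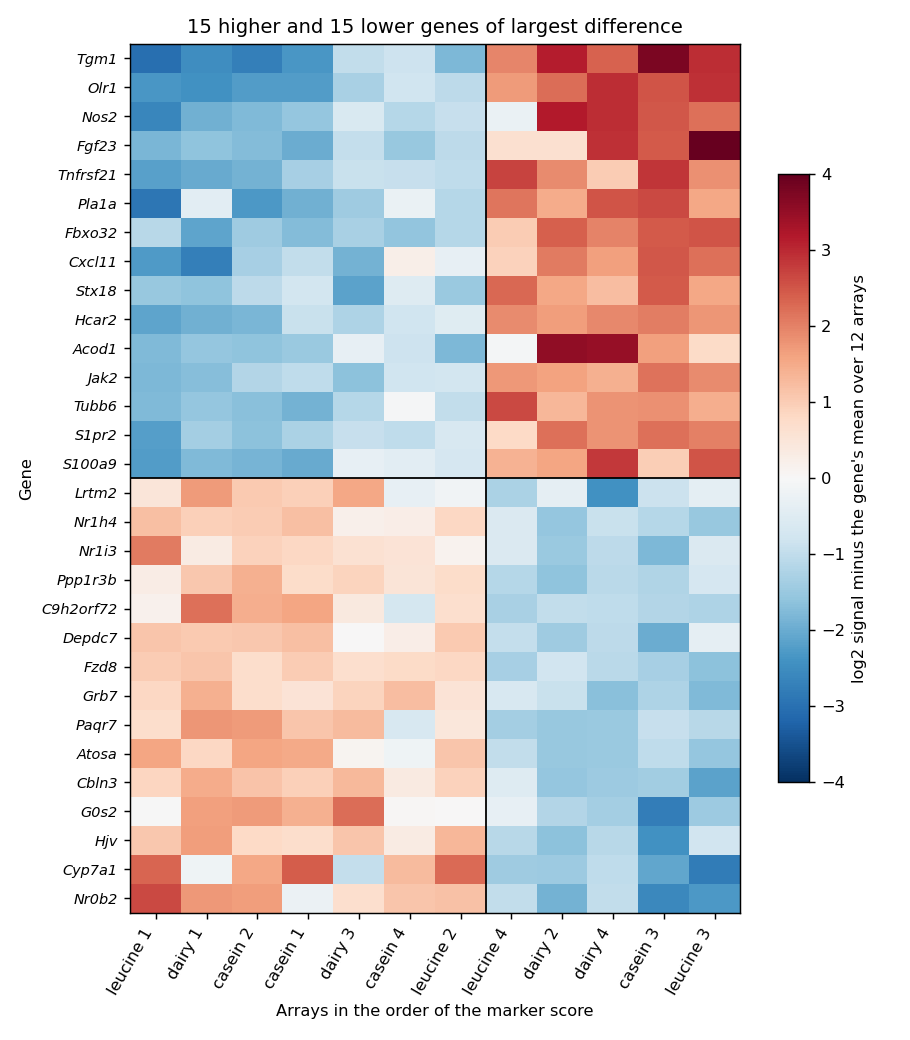
Log2 signal of the 15 higher and 15 lower genes of largest difference (rows) in the 12 arrays (columns, from lowest to highest marker score), as the distance from each gene's mean over the arrays. The vertical line parts the 7 quiet from the 5 inflamed arrays; Nos2 and Acod1 are palest in leucine 4 among the inflamed arrays.

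Promoters are shown for the 3 higher genes of largest difference whose promoter held at least 2 of 4 motifs, since their motifs are those of the pathways described below. The sequences are from RefSeq (GRCr8) and run from 250 bases before the transcription start to 50 after it, with motif matches in capitals. Cxcl11 lies at chr14:15973478-15973777 on the plus strand, with an NF-kappaB and a STAT match. Stx18 lies at chr14:76973677-76973976 on the minus strand, with a pair of NF-kappaB matches and an interferon-response match. Thbs1, the matrix glycoprotein thrombospondin-1, named for its promoter and after its values were seen, lies at chr3:125510000-125510299 on the plus strand, with a STAT and an interferon-response match; it stood at 9.31, 8.36, 8.88, 8.55 and 8.30 against 5.30 to 6.16, median 5.82, a difference of 2.98 (SE 0.24).
Cxcl11: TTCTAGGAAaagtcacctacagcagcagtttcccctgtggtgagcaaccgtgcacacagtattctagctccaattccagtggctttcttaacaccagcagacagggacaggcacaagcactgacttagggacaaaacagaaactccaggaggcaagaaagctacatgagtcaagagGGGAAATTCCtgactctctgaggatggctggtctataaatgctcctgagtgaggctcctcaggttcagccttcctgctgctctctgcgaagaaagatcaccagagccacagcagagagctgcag
Stx18: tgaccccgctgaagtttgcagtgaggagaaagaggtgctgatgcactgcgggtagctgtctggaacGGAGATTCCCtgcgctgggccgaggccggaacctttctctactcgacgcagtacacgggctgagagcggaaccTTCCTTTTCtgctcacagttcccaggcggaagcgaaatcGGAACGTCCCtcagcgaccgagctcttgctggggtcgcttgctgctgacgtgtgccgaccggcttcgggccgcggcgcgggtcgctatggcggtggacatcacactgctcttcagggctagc
Thbs1: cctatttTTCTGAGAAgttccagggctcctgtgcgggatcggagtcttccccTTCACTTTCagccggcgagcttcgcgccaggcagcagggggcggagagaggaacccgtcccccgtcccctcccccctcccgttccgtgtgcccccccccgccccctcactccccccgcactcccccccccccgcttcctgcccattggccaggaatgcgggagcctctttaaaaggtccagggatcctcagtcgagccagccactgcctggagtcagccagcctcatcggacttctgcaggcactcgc

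The motifs were searched on both strands as TTCNNNGAA for STAT, GAAANNGAA for the interferon-response element, TTGCNNAA for C/EBP and the usual degenerate decamer for NF-kappaB, and they may overlap. Promoters were found for 325 of the 405 higher genes, 73 of the 88 lower genes and 11947 of all 14502 genes. The NF-kappaB motif was in 14.5% of the promoters of higher genes, 6.85% of those of lower genes and 8.91% of all promoters. The interferon-response motif was in 10.5%, 1.37% and 8.17% in the same order, the C/EBP motif in 13.5%, 9.59% and 9.98%, and the STAT motif in 8.62%, 6.85% and 7.60%. These shares are a description of letters in a window, not of binding.

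The groups overlapped for 5 secreted signals, the cytokines Il6, Il1b and Tnf and the chemokines Cxcl10 and Ccl2, which were chosen for naming after their values were seen. Il6 stood at 4.85, 4.15, 4.36, 3.99 and 2.91 in the inflamed livers and at 2.16 to 3.12, median 2.63, in the quiet livers. Tnf stood at 7.47, 7.26, 7.60, 7.48 and 5.66 against 4.20 to 6.24, median 4.75. Il1b, the gene of interleukin-1 beta, stood at 8.34, 9.08, 9.98, 9.58 and 7.60 against 5.42 to 8.88, median 6.70. In all 3 genes leucine 4 was the lowest inflamed liver and lay below quiet leucine 2. The same held for Cxcl10, a chemokine induced by interferon gamma: leucine 4 stood at 7.27 against 10.33 to 11.19 in the other inflamed livers, and leucine 2 stood at 10.20, while the quiet median was 5.59. Ccl2, which attracts monocytes, stood at 9.48 in quiet leucine 2, above all 5 inflamed livers (6.32 to 9.36). The part of these 2 livers in the gene differences was not tested, and the count of higher genes was 488 without leucine 4 and 473 without leucine 2.

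Of 18 measured genes of gp130 cytokine receptors and JAK-STAT3 signalling, 4 were higher and none lower, and the list's median difference was 0.45. Il6st, the gp130 chain itself, stood at 10.81, 10.38, 10.55, 10.59 and 10.46 against 9.66 to 10.30, median 10.04; the groups did not overlap, but the difference was 0.51 (SE 0.11). The interleukin-6 receptor Il6r overlapped fully, with a difference of -0.38 (SE 0.29). Jak2, the kinase below several cytokine receptors, stood at 9.82, 9.26, 9.05, 9.53 and 9.39 against 5.85 to 6.91, median 6.49, a difference of 3.14 (SE 0.18). The gap between the groups was therefore wider than the whole spread of either. Stat3 stood at 10.49, 10.20, 10.32, 10.19 and 10.63 against 8.29 to 10.01, median 8.96, a difference of 1.25 (SE 0.33). Its feedback inhibitor Socs3 stood at 9.06, 8.55, 9.59, 9.48 and 8.24 against 4.52 to 8.21, median 5.67, a difference of 2.80 (SE 0.75). For Socs3 the groups all but touched, at 8.24 in inflamed leucine 4 and 8.21 in quiet leucine 2. Cebpd, a transcription factor of the acute phase, differed by 1.82 (SE 0.47), whereas the related Cebpb overlapped, with a difference of 0.38 (SE 0.30).

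Receptors and adaptors of the Toll-like, interleukin-1 and TNF pathways held 10 higher and no lower genes of 32, with a median difference of 0.95. The higher members were the receptors Tlr2, Nod1 and Il1r1, the endotoxin carriers Cd14 and Lbp, the kinases Ripk1 and Ripk3, and 3 inhibitors of the pathways, Irak3, Il18bp and Il1rn. Irak3, a brake on Toll-like receptor signalling, stood at 9.75, 9.20, 9.36, 9.33 and 9.02 against 5.83 to 8.21, median 6.19, a difference of 2.59 (SE 0.48). Il18bp, the decoy for interleukin-18, differed by 2.48 (SE 0.32), Il1rn, the interleukin-1 receptor antagonist, by 2.46 (SE 0.45) and Cd14 by 2.10 (SE 0.29). The 3 inhibitors were thus the members of largest difference that met the rule.

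The NF-kappaB list held 7 higher and no lower genes of 21, with a median difference of 1.29. Nfkb1, the p105 and p50 subunit, stood at 9.61, 9.19, 9.31, 9.45 and 9.75 against 6.82 to 8.13, median 7.08, a difference of 2.29 (SE 0.22). Nfkb2, the subunit of the alternative pathway, differed by 2.51 (SE 0.55), the inhibitor Nfkbie by 2.27 (SE 0.43) and the ubiquitin ligase Birc2 by 2.18 (SE 0.36). Rela, Tbk1 and Cflar were the other higher members. The main inhibitor Nfkbia overlapped, at 10.34, 10.65, 11.00, 10.96 and 9.62 against 8.21 to 10.63, median 8.59, since leucine 4 lay below quiet leucine 2 and casein 4, and casein 3 below leucine 2.

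**Figure D3:**
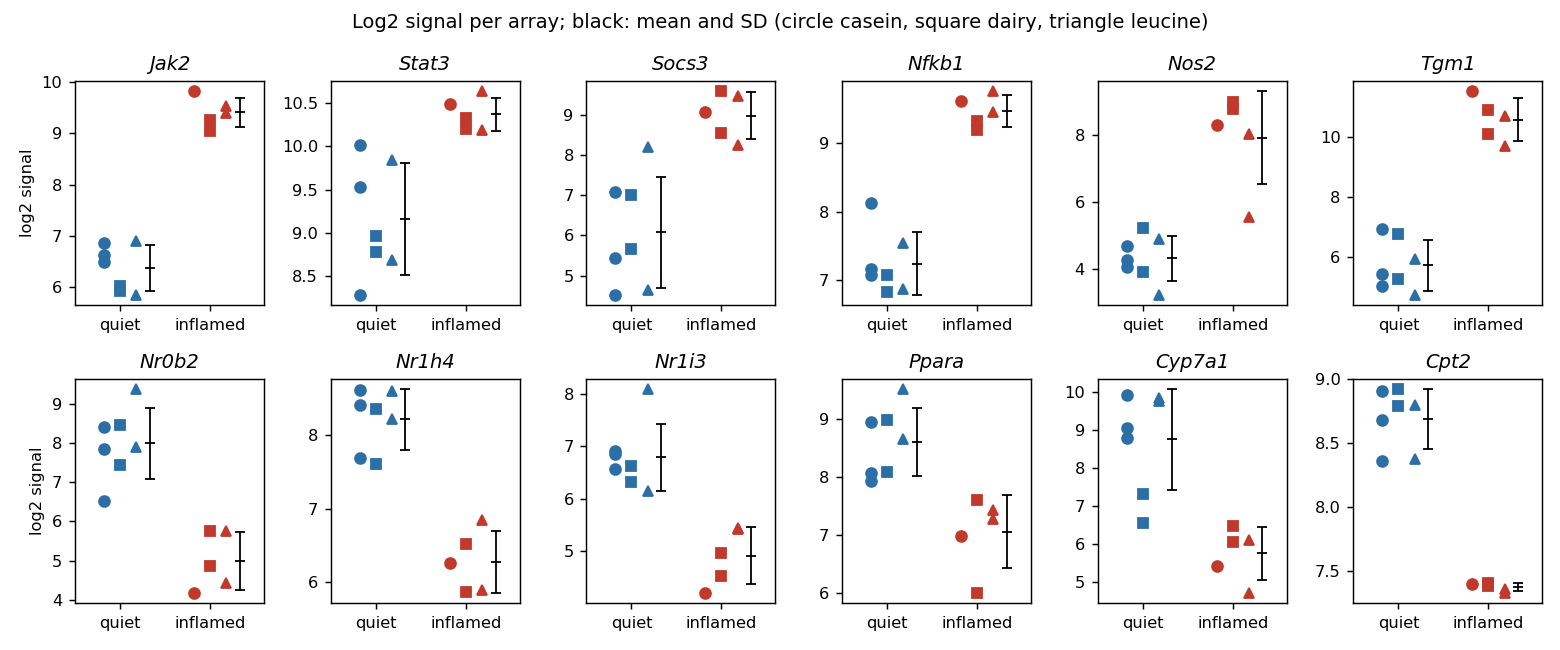
Log2 signal of 6 higher genes (top) and 6 lower genes (bottom) in the 7 quiet (blue) and 5 inflamed (red) arrays; black marks are group means with the SD over arrays. Jak2 and Cpt2 have wide gaps between groups, while Socs3 (8.24 against 8.21) and Cyp7a1 (6.47 against 6.55) nearly touch.

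Among the acute phase proteins, which hepatocytes secrete into the plasma during inflammation, several already had high signals in most quiet livers. Of 30 positive acute phase genes, 8 were higher and none lower, with a median difference of 0.45; the 8 were A2m, Lbp, Steap4, Il1rn, Mt2A, Reg3b, Reg3g and Cd14. A2m, the classical rat acute phase protein alpha-2-macroglobulin, stood at 12.24, 12.58, 12.90, 12.18 and 12.79 in the inflamed livers. Among the quiet livers it stood at 5.98 in casein 2 and 7.47 in leucine 1, but between 10.55 and 11.70 in the other 5. Its difference of 2.54 (SE 1.07) therefore rested on a quiet group that was itself divided. Lcn2, lipocalin-2, an iron-siderophore binder, showed the same division, at 6.61 in casein 2 and 6.98 in leucine 1 and 9.89 to 12.14 in the other quiet livers, and overlapped the inflamed range of 11.69 to 13.10. Steap4, a metalloreductase, stood at 11.56, 11.61, 11.62, 11.28 and 11.21 against 7.69 to 10.12, median 8.63, a difference of 2.66 (SE 0.48).

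The abundant plasma proteins overlapped: the differences were 0.80 (SE 0.39) for Orm1, the orosomucoid gene, 0.32 (SE 0.13) for haptoglobin Hp and 0.38 (SE 0.10) for the fibrinogen beta chain Fgb. Hamp, the iron hormone hepcidin, differed by 1.20 (SE 0.38) and overlapped through quiet casein 4. The mean of the positive acute phase list was 11.58 to 11.78 in the inflamed livers and 10.24 to 11.26 in the quiet livers. Of 16 negative acute phase genes none was higher or lower, although 15 had a negative difference, and the median was -0.26. None of 25 complement genes was higher or lower.

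Interferon response genes held 12 higher and no lower members of 44, with a median difference of 1.43. The 12 included the guanylate-binding protein Gbp2, a relative of the marker Gbp5, the antiviral gene Oasl, the RNA sensor Ifih1, the kinase Eif2ak2 and the transcription factor Irf8. Herc6, a ubiquitin-like ligase, stood at 9.69, 9.46, 8.56, 7.95 and 7.47 against 5.32 to 6.62, median 5.90, a difference of 2.94 (SE 0.31). Gbp2 stood at 9.08, 9.47, 8.79, 7.60 and 7.17 against 4.95 to 6.37, median 5.49, also a difference of 2.94 (SE 0.45). In both genes the 2 inflamed livers on leucine stood below the 3 inflamed livers on casein and dairy protein. The mean of the 44 genes ran the same way, at 8.31, 8.46, 7.71, 7.32 and 7.02, against 6.10 to 6.79 in the quiet livers. Whether the inflamed livers on leucine differed from the other inflamed livers was not tested. Irf1, an early factor of this response, overlapped, at 8.73, 8.83, 10.21, 9.56 and 7.29 against 5.66 to 9.18, median 6.50, the highest quiet value being that of leucine 2.

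In antigen processing, the peptide transporter Tap1 differed by 1.87 (SE 0.34), its partner Tap2 by 1.13 (SE 0.15) and the loading chaperone Tapbp by 1.18 (SE 0.19), and these were the 3 higher genes of 20. All 20 had a positive difference, with a median of 0.61. Of 30 chemokine genes 3 were higher, Cxcl11, Cxcl16 and Ccl4, with a median of 0.57. Ccl4, a chemokine that attracts macrophages, stood at 8.70, 8.85, 8.72, 8.58 and 6.71 against 5.37 to 6.64, median 5.68, so that inflamed leucine 4 again lay next to quiet leucine 2. Of 15 leukocyte adhesion genes 6 were higher, with a median of 0.85. They were the endothelial adhesion molecules Icam1 (2.45, SE 0.59) and Selp (2.90, SE 0.47), the hyaluronan receptor Cd44 (2.16, SE 0.26), and the leukocyte integrins Itgal, Itgam and Itgb2.

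Genes of inflammatory cell death held 6 higher members of 17, with a median difference of 0.98. The death receptor Fas differed by 2.32 (SE 0.35), the inflammatory caspase Casp4 by 2.19 (SE 0.29), the necroptosis kinase Ripk3 by 1.85 (SE 0.17) and Casp12 by 1.69 (SE 0.41); Ripk1 and Bid were the other members. Of 23 immediate early genes, 2 were higher, Myc (1.68, SE 0.40) and Klf6 (1.67, SE 0.23), with a list median of 0.97. Iron handling genes went both ways: of 18, the importers Slc11a2 (1.83, SE 0.25) and Slc39a14 (1.20, SE 0.19) and haem oxygenase Hmox1 (2.14, SE 0.56) were higher. Hjv, the bone morphogenetic protein co-receptor that induces hepcidin, was lower, at 5.05, 5.82, 6.35, 6.69 and 6.34 against 7.80 to 9.11, median 8.52, a difference of -2.60 (SE 0.20). The list's median was near 0, at -0.003.

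**Figure D4:**
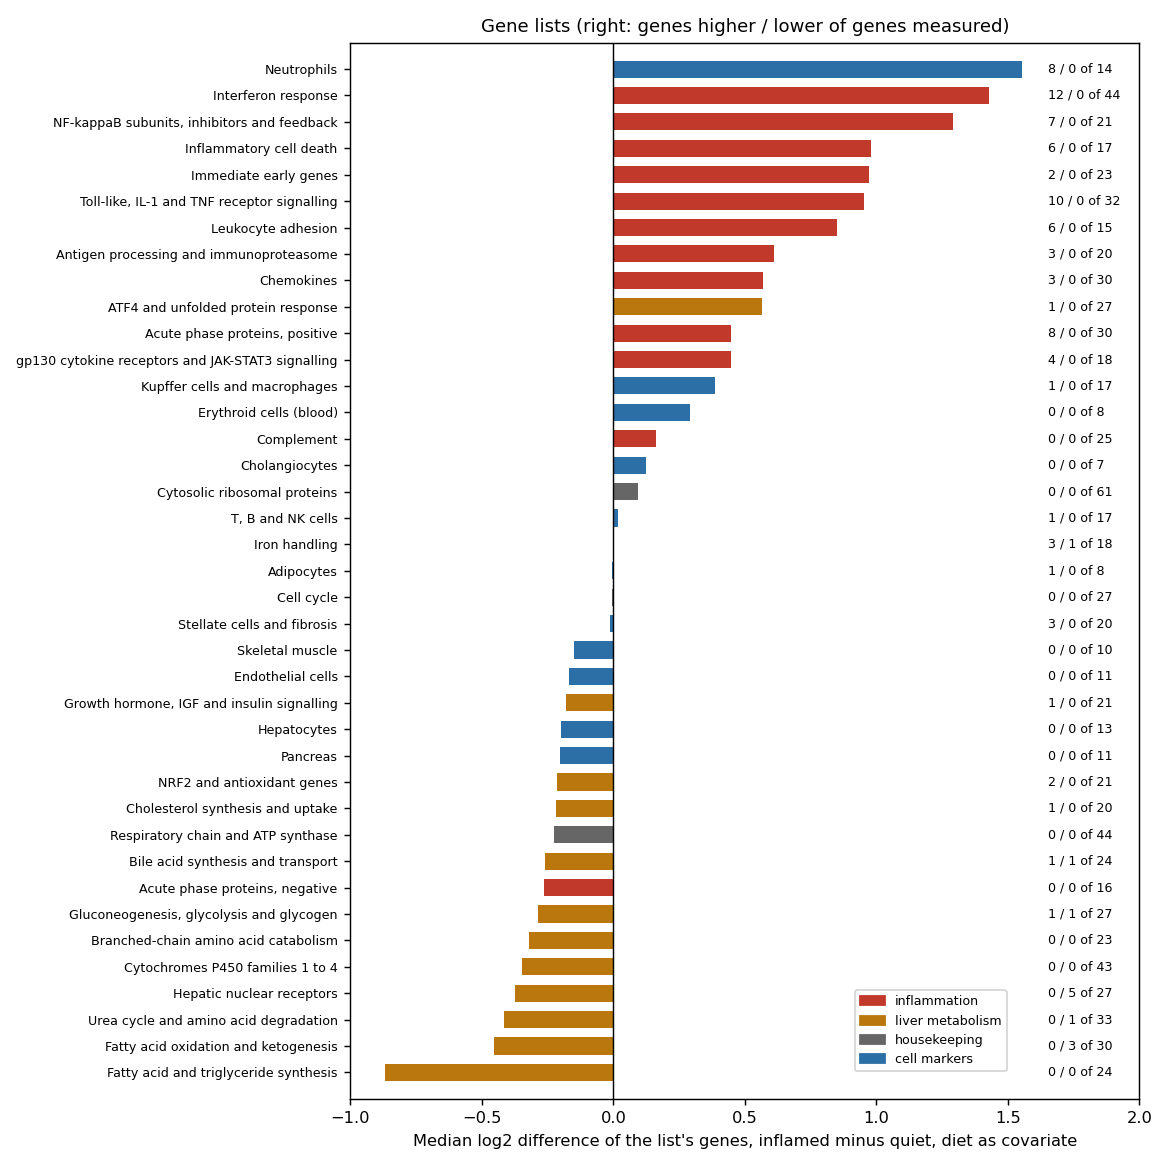
Median log2 difference (inflamed minus quiet, diet as covariate) of each of the 39 gene lists, coloured by kind, with the number of genes higher and lower of those measured at the right. The longest bars are neutrophil markers (1.55) and the interferon response (1.43) upward and fatty acid and triglyceride synthesis (-0.87) downward; the median over all genes was -0.04.

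Of 27 hepatic nuclear receptors, the transcription factors that sense bile acids, lipids and drugs, 5 were lower and none higher, with a median difference of -0.38. Nr0b2, the small heterodimer partner that represses bile acid synthesis, stood at 4.18, 4.85, 5.75, 4.44 and 5.76 against 6.52 to 9.38, median 7.91, a difference of -3.18 (SE 0.49), the largest of the 88. Nr1h4, the bile acid receptor FXR, stood at 6.26, 5.86, 6.52, 5.89 and 6.84 against 7.61 to 8.62, median 8.36, a difference of -1.94 (SE 0.27). Nr1i3, the xenobiotic receptor CAR, stood at 4.20, 4.53, 4.96, 5.42 and 5.44 against 6.15 to 8.10, median 6.63, also -1.94 (SE 0.34). For these 3 receptors every inflamed liver lay below every quiet liver. Ppara, the fatty acid receptor, stood at 6.98, 6.01, 7.60, 7.28 and 7.44 against 7.94 to 9.52, median 8.66, a difference of -1.63 (SE 0.35). The pregnane receptor Nr1i2 was the other lower member. The list mean was 6.74 to 7.04 in the inflamed and 7.20 to 7.61 in the quiet livers.

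In bile acid synthesis, 1 gene of 24 was higher and 1 was lower, with a median difference of -0.26. Cyp7a1, the rate-limiting enzyme of the classical pathway, stood at 5.42, 6.05, 6.47, 4.72 and 6.09 against 6.55 to 9.92, median 9.05, a difference of -2.89 (SE 0.67). Its gap was uneven across diets: inflamed minus quiet was -3.83 on casein, -4.40 on the leucine diet and -0.67 on dairy protein, where the quiet livers were themselves low, at 7.32 and 6.55. Whether the diets differed in this gap was not tested. Cyp7b1, the oxysterol hydroxylase of the alternative pathway, was higher, at 8.10, 8.03, 8.44, 8.02 and 7.50 against 5.08 to 6.25, median 5.57, a difference of 2.30 (SE 0.25).

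Fatty acid oxidation held 3 lower genes of 30, Ppara, Cpt2 and Pdk4, and 29 of the 30 had a negative difference, with a median of -0.45. Cpt2, the inner-membrane carnitine palmitoyltransferase, stood at 7.40, 7.39, 7.41, 7.36 and 7.33 against 8.36 to 8.93, median 8.79, a difference of -1.32 (SE 0.11). The 5 inflamed livers were nearly equal to each other in Cpt2. Pdk4, the kinase that holds back glucose oxidation, differed by -1.83 (SE 0.42).

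Fatty acid and triglyceride synthesis had the lowest median of all lists, -0.87, with 22 of 24 differences negative, yet none of the 24 met the rule. Fasn, fatty acid synthase, named after its values were seen, stood at 8.36, 8.87, 7.92, 8.18 and 7.39 against 8.73 to 11.42, median 10.23, and the overlap came from quiet casein 4 alone. The list mean was 7.57 to 8.25 in the inflamed livers, while among the quiet livers it was 8.11 in casein 4 and 8.26 in dairy 3, the 2 narrowest arrays, and 9.01 to 9.80 in the other 5. Mlxipl, the carbohydrate response factor ChREBP, did not overlap, at 8.05, 7.78, 7.89, 7.66 and 8.15 against 8.57 to 8.97, median 8.88, but its difference of -0.92 (SE 0.11) was below the minimum. Of 20 cholesterol genes 1 was higher, the lanosterol synthase Lss (1.45, SE 0.35), with a list median of -0.22.

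Glucose metabolism held 1 higher and 1 lower gene of 27, and both make the regulator fructose 2,6-bisphosphate. Pfkfb3, the inducible isoform, differed by 2.09 (SE 0.31) and Pfkfb1, the liver isoform, by -1.62 (SE 0.29). G6pc1, glucose-6-phosphatase, named after its values were seen, stood at 7.09, 8.54, 7.16, 4.83 and 7.45 in the inflamed livers. Its quiet values were 9.54 to 12.54 in 6 livers but 7.40 in leucine 2, so it overlapped in spite of a difference of -3.27 (SE 1.00). The list's median was -0.29. Ppp1r3b, which brings phosphatase to glycogen and is outside the list, differed by -1.95 (SE 0.24).

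Of 33 urea cycle and amino acid degradation genes 1 was lower, Ftcd of histidine breakdown (-1.04, SE 0.21), with 31 negative differences and a median of -0.42. None of 23 branched-chain amino acid genes and none of 43 cytochromes P450 of families 1 to 4 was higher or lower, with medians of -0.32 and -0.35. Growth hormone and insulin signalling held 1 higher gene of 21, the growth hormone feedback inhibitor Socs2, with a difference of 2.41 (SE 0.51). The unfolded protein response held 1 of 27, the transcription factor Xbp1, at 12.10, 11.66, 11.19, 11.79 and 11.95 against 9.40 to 10.21, median 9.79, a difference of 1.93 (SE 0.20). The NRF2 and antioxidant list held 2 of 21, Hmox1 and the mitochondrial superoxide dismutase Sod2, whose difference was 1.99 (SE 0.33). The medians of the growth hormone, unfolded protein and NRF2 lists were -0.18, 0.56 and -0.21. None of 61 ribosomal protein genes, 44 respiratory chain genes and 27 cell cycle genes was higher or lower, with medians of 0.09, -0.22 and -0.004. Of the 44 respiratory chain genes, 41 had a negative and 3 a positive difference. Their mean was 8.74 to 8.91 in the inflamed livers. Among the quiet livers it was 8.77 in casein 4, 8.92 in dairy 3 and 9.08 to 9.26 in the others.

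The other lower genes of the leading 15 belonged to no list. They included G0s2, an inhibitor of triglyceride lipase, with a difference of -2.52 (SE 0.56), the secreted cerebellin Cbln3 (-2.46, SE 0.30) and the membrane progestin receptor Paqr7 (-2.19, SE 0.44). The receptor adaptor Grb7 (-2.14, SE 0.26) and the Wnt receptor Fzd8 (-2.12, SE 0.14) followed. Fzd8 had the smallest SE of the 15, at 5.62, 6.17, 5.85, 5.31 and 5.62 against 7.61 to 8.06, median 7.77. G0s2 was less even: inflamed leucine 4 stood at 7.75 and quiet leucine 1 and 2 at 8.05 and 8.06. Atosa, Depdc7, C9h2orf72 and Lrtm2 had differences of -2.21, -2.05, -1.98 and -1.86.

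Markers of other cell types were set beside these results. Of 14 neutrophil markers 8 were higher, S100a8, S100a9, Cxcr2, Csf3r, Mmp8, Mmp9, Ncf1 and Itgam, with a median difference of 1.55, and their list mean was 5.34 to 6.09 in the inflamed and 3.80 to 4.78 in the quiet livers. S100a9 stood at 6.51, 7.11, 8.35, 8.06 and 6.92 against 3.30 to 5.21, median 3.79. The chemokine receptor Cxcr2 differed by 2.37 (SE 0.32), the colony-stimulating factor receptor Csf3r by 2.45 (SE 0.30) and the collagenase Mmp8 by 2.52 (SE 0.37). The granule enzymes Mpo and Elane, which immature neutrophils make and which were named after their values were seen, stayed low in both groups, at 3.56 to 4.24 against 3.47 to 4.44 for Mpo and 3.54 to 3.94 against 3.41 to 3.90 for Elane. The 8 higher markers share these 5 livers with the inflammatory genes above through the rule itself, which adds nothing. The part of neutrophil markers in the result was not tested.

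Of 17 Kupffer cell and macrophage markers 1 was higher, the oxidase subunit Cybb (1.47, SE 0.32), and the list mean overlapped, at 7.34 to 7.94 against 6.75 to 7.52. Of the 17, 13 had a positive and 4 a negative difference, with a median of 0.39. The macrophage receptor Adgre1 had a difference of 1.65 (SE 0.38) and the Kupffer cell lectin Clec4f one of -0.75 (SE 0.34), and both overlapped; they were named after their values were seen. Of 17 lymphocyte markers 1 was higher, the pan-leukocyte gene Ptprc (1.29, SE 0.38), with a median of 0.02. All inflamed livers lay above all quiet livers for 3 of the 17, and the list mean did not overlap either, at 4.59 to 4.76 against 4.26 to 4.55; the part of these markers in the result was not tested. Stellate cell and fibrosis genes held 3 higher members of 20, Timp1 (2.34, SE 0.39), Vim (1.19, SE 0.24) and Pdgfra (1.01, SE 0.22), with a median of -0.01 that turned positive under median centring. Cidec, a lipid droplet protein on the adipocyte list, differed by 1.06 (SE 0.25) and was the single higher gene of 8.

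Hepatocyte markers, which define the labelled tissue, had high signals in every array. Of 13 hepatocyte markers none was higher or lower, with a median difference of -0.20. Their mean was 11.98 to 12.15 in the inflamed and 11.92 to 12.36 in the quiet livers. The overlap came from quiet dairy 3 alone, which is among the narrowest arrays. The other quiet livers stood at 12.17 to 12.36, above every inflamed liver. Albumin, Alb, named after its values were seen, stood at 13.53 to 13.62 against 13.46 to 14.08, and it too overlapped through dairy 3 alone. None of 11 endothelial, 7 cholangiocyte, 8 erythroid, 11 pancreatic and 10 skeletal muscle markers was higher or lower, and the endothelial sialomucin Emcn was below all quiet livers with a difference of -0.92 (SE 0.17). The medians of these lists were -0.17, 0.12, 0.29, -0.20 and -0.15.

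**Figure D5:**
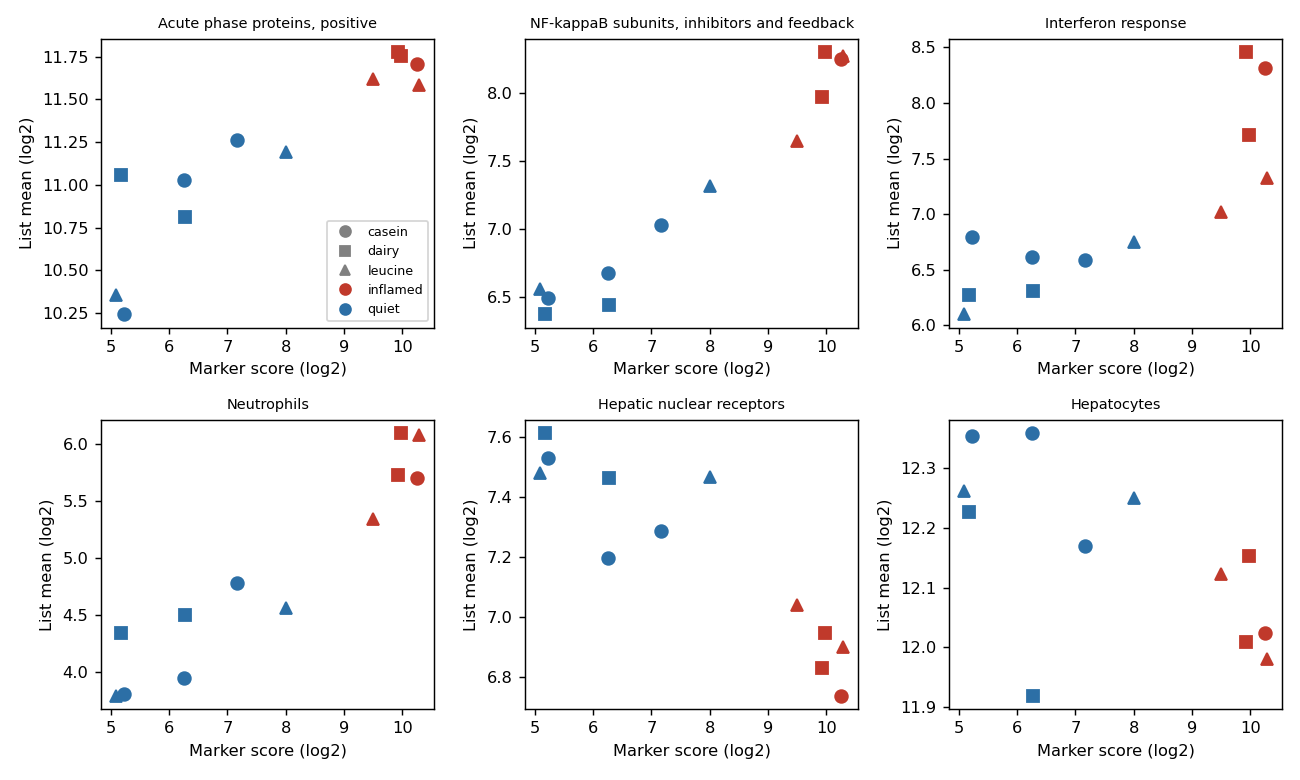
Mean log2 signal of 6 gene lists against the marker score in the 12 arrays (red inflamed, blue quiet; circle casein, square dairy, triangle leucine). Of the 6 lists, hepatocyte markers alone overlap between the groups, and only through quiet dairy 3. The quiet livers casein 2 and leucine 1 are lowest for the acute phase list.

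The quiet livers were not alike. Along a scale with the quiet mean at 0 and the inflamed mean at 1, casein 4 had a median position of 0.23 over the 405 higher genes and leucine 2 one of 0.17, the other 5 quiet livers lying between -0.15 and 0.02. Casein 4 was the quiet liver nearest to the inflamed ones for 163 of the 405 and leucine 2 for 93. The part of array spread in these positions was not tested. Over the 88 lower genes casein 4 and dairy 3, the 2 narrowest arrays, stood at 0.37 and 0.20, whereas leucine 2 stood at 0.002. Leucine 2 thus lay towards the inflamed livers in the higher genes but not in the lower ones, a comparison that was not tested. On the other side, leucine 4 was the inflamed liver nearest to the quiet ones for 166 of the 405 and 37 of the 88, with median positions of 0.80 and 0.86, and casein 3 stood furthest out over the higher genes, at 1.18.

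Within single diets, 1 inflamed liver was set against 3 quiet livers on casein and 2 against 2 on each of the other diets. The median difference of the 405 higher genes was 1.67 on casein, 1.64 on dairy protein and 1.25 on the leucine diet, and that of the 88 lower genes was -1.42, -1.37 and -1.37. Groups that do not overlap must differ in the same direction within each diet, so the shared direction adds nothing. The genes were also selected for the size of their difference in these same arrays, so the sizes within diets are no separate evidence. A size of at least 1 within every diet was found for 245 of the 405 and 46 of the 88. Jak2 was even across the diets, at 3.16, 3.18 and 3.08 in the order casein, dairy and leucine, while Acod1 ran from 2.14 on the leucine diet to 4.46 on dairy protein.

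The 5 genes whose log2 signal followed the marker score most closely over the 12 arrays were Vcan, a matrix proteoglycan, with r = 0.992, the bicarbonate transporter Slc4a4 with 0.986, Hcar2 with 0.983, the transcription factor Runx1 with 0.975 and the RNA-binding protein Arid5a with 0.975. The arrays fall into 2 clusters along the score, so these values describe the likeness and have no p. Vcan stood at 6.84, 6.22, 6.22, 6.37 and 6.21 in the inflamed livers, and in the quiet livers it was highest in leucine 2 (5.05) and casein 4 (4.63), the order of their scores. Vcan was picked for following the score, so this order is no separate evidence. Runx1 differed by 2.98 (SE 0.36), Arid5a, which stabilises Il6 and Stat3 messages, by 3.00 (SE 0.53), and Slc4a4 by 1.23 (SE 0.15).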

How the data were processed

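The liver RNA of each of 12 rats, 4 per diet, was hybridised to 1 Affymetrix gene array. The authors deposited log2 expression values for each probe set in 1 table. Per the submitters' processing notes they used Affymetrix Expression Console; its algorithm and version were not given in the sources used here, nor was a genome build. Values were used as deposited. Of 29214 probe sets, 15310 had 1 gene symbol in the platform annotation, 323 several and 13581 none; of 15310, 15279 matched a RefSeq gene by Entrez ID, with the same symbol. Each of 14506 genes was represented by its probe set of highest mean, and 527 genes had more than 1. The number of arrays limits the precision.

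The marker genes, the threshold of 9 and the 39 gene lists (854 of 977 genes measured) were chosen with earlier results of these data known. The difference between inflamed and quiet arrays was estimated with limma 3.58.1 in R 4.3.3 (lmFit, diet as covariate), with ordinary standard errors and no p-value, because the arrays were grouped on the same measurements. Tested on simulated data, the fit recovered the differences put in. The simulated noise was independent between genes and capped in size, and no diet effect was put in. The simulation therefore checks the calculation alone, not the differences reported here. The named genes were the 15 of largest difference each way among higher and lower genes, up to 4 such members of each list (or else up to 2 with no overlap), a set of receptors, kinases, factors and acute phase genes, and the 5 genes most like the marker score; other genes given with values were named after their values were seen and are marked so, and list members that met the rule are named without values. One gene of that set is not reported here. Exact tests of diet against the groups and the score are not reported, because the markers and threshold were chosen with results known. Alternatives were the covariate, the replicate block, 3 scalings, the threshold, each marker left out, the choice of probe set, a filter on dim genes, array weights and each array left out. After the data were seen, leaving out the 2 quiet arrays nearest the threshold was added.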

Additional observations from a re-analysis of the deposited data

Results flagged for a closer look

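Of 310 groups of values tested (116 named genes and 39 list means, each in the 5 inflamed and the 7 quiet livers), 20 held 1 array far from the others by Dixon's criterion; chance flags about 1 in 20 groups. The groups of values are not independent: list means share genes with the named genes, and some genes were named after their values were seen. No cause was tested for any of the flags.

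In the inflamed livers, leucine 4 stood apart for 9 values. It was lower than the other 4 for Nos2 (5.54), the sphingosine receptor S1pr2 (7.82), Ccl4 (6.71), Tnf (5.66), Cxcl10 (7.27), the chemokine mean (5.98), the leukocyte adhesion mean (6.16) and the respiratory chain mean (8.74), and it was higher for Mpo (4.24). Casein 3 was higher than the others for the endotoxin receptor Cd14 (11.2), Pdgfra (8.18) and Vcan (6.84), and lower for Cebpb (7.96).

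In the quiet livers, leucine 2 was higher than the other 6 for the interferon factor Irf1 (9.18) and the monocyte chemokine Ccl2 (9.48). Leucine 1 was higher for the receptor Nr1i3 (8.1) and lower for the peptide transporter Tap1 (5.83) and the growth hormone inhibitor Socs2 (5.46). Dairy 3 was lower for the leukocyte gene Ptprc (4.99) and for the hepatocyte marker mean (11.9).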

How the results depend on the processing

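The count of higher genes stayed within 1.5 times its value of 405 under all alternatives, from 342 with the filter on dim genes, which tests fewer genes, and 350 under quantile normalization to 548 without the 2 quiet arrays nearest the threshold, and from 384 to 488 when 1 array was left out. The count of lower genes, 88, was 246 without the 2 narrowest arrays and 180 without the 2 quiet arrays nearest the threshold, an alternative chosen after seeing the data; it was 87 to 171 when 1 array was left out, the highest without casein 4. With fewer arrays the no-overlap part of the rule is easier to meet by construction, while the fitted difference can rise or fall. Counts therefore need not grow: 384 genes were higher without casein 3. No cause of the changes in these counts was tested. Of the lower genes, 86 were also lower without the 2 narrowest arrays, and 379 of the 405 were also higher. No array scored between 8.01 and 9.502, so thresholds of 8.5 and 9.5 could not change the groups. Leucine 4, at 9.502, lay only just above the threshold of 9.5. A score without any 1 of the markers also left the groups as they were. The deviations of same-numbered arrays of different diets went both ways (7 of 12 pairs over 0.1, r from -0.514 to 0.589). These deviations also hold the difference between inflamed and quiet livers, so they cannot show whether the numbers pair the samples. With the replicate block 419 genes were higher and 70 lower. The higher share of all called genes was 73.2% to 86.4% under the 3 scalings against 82.2%, and 64.7% without the 2 narrowest arrays. No named gene changed direction. The medians that changed sign were those of iron handling, cholesterol synthesis, growth hormone signalling, cell cycle, lymphocytes, stellate cells, cholangiocytes and adipocytes. Each but the cholangiocyte median was near 0 in at least 1 of the fits. The cholangiocyte median was 0.12 with all genes and -0.12 with the filter on dim genes. Probe sets near the array's lower signals have no detection call here, so their differences carry an unknown background.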

Other observations

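Of 13904 probe sets without a single gene symbol, 116 were higher and 33 lower in the inflamed livers by the same rule. They are unnamed here and were not analysed further.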
